A study of Mus musculus with 6 samples.

Results

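The enzymes that carry glucose to lactate were followed in Lineage- c-Kit+ Sca1+ (LSK) cells, the small bone marrow population in which blood stem cells and multipotent progenitors are found, with and without miR-21. The list held 10 genes, Hk2, Gpi1, Pfkl, Aldoa, Tpi1, Pgk1, Pgam1, Eno1, Pkm and Ldha, 1 for most steps of the pathway. A gene was measured where the array annotation gave a probe set to it alone, which held for 8 of the 10 (9 probe sets) among 30142 genes in all. Gpi1 and Eno1 had no such probe set and are not analysed here. The cells came from 3 samples of conditional knockout mice, genotype miR-21flox/flox:Mx1-Cre+ (called miR-21 cKO), and from 3 samples of control littermates, genotype miR-21flox/flox:Mx1-Cre-. All mice carried floxed miR-21 alleles and received intraperitoneal pIpC at 250 µg a dose, 7 doses given on alternate days from an age of 4 to 6 weeks, and marrow was taken 4 weeks afterwards. The compound pIpC mimics viral RNA and induces interferon, to which the Mx1 promoter of the Cre transgene responds. That promoter is active in many interferon-responsive cells, so deletion may not have been limited to blood, and where it took place was not measured here. Cre was absent from controls, so its own effects cannot be told apart from those of losing miR-21. The mature strand of the targeted microRNA, from RefSeq (GRCm38.p6, chr11:86584120-86584141, minus strand), is shown because it is the molecule the design removes. Its seed, bases 2 to 8, is in capitals.
mmu-miR-21a-5p: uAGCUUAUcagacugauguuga

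Glycolysis splits a glucose molecule into a pair of pyruvate molecules in the cytosol and yields ATP without oxygen. Its upper stage spends ATP to trap and split the sugar, with hexokinase and phosphofructokinase as the controlled steps, and its lower stage earns ATP at phosphoglycerate kinase and pyruvate kinase. Lactate dehydrogenase then turns pyruvate into lactate and returns the NAD+ that the pathway needs. Blood stem cells in the marrow are known to lean on glycolysis while quiescent, and the pathway is a classical target of the transcription factors HIF-1 and Myc.

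Each array gave 1 log2 value per probe set, and changes are differences of mean log2 values, miR-21 cKO minus control, so that 1 unit is a doubling. Medians of the 6 arrays lay between 1.89 and 1.95, and correlations across probe sets were 0.995 to 0.997 within a group and 0.987 to 0.991 between groups. The labels call the samples biological replicates but do not say how many mice each held, so the p-values measure the spread between these arrays. The miR-21 gene shares its probe set with the host gene Vmp1, which stood at 5.68 ± 0.07 in miR-21 cKO and 5.63 ± 0.02 in control (SD, n = 3 each, exact two-sided permutation p = 0.4, where 0.1 is the smallest possible), and this does not check the deletion. Of the 18736 genes above the dim level of 1.92, the median of all probe sets, 5909 (31.5%) passed an adjusted p of 0.05 in limma, 19.4% higher and 12.2% lower in miR-21 cKO. Their split was 3632 higher to 2277 lower, and 2804 to 2714 when each array was centred on the median of the genes tested. The fraction is bulk RNA, where fewer cells of a type and less RNA per cell cannot be told apart. Of the 10 LSK markers tested, the brightest, Kit, Cd34 and Flt3, had group means of 7.58 to 9.06. Procr, Slamf1 and Mecom were dimmer, with group means of 3.68 to 4.57. The T cell antigens Cd3e, Cd4 and Cd8a had group means of 1.88 to 2.38, near the dim level, but other antigens of the lineage list stood well above it, with means of 5.171 in miR-21 cKO and 5.597 in control for Itgam, 5.39 and 4.59 for Ly6c1, 3.73 and 3.69 for Cd79a and 3.26 in both groups for Itgax. Ly6a, which encodes Sca-1, had no probe set of its own.

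Several enzymes that act after the sugar is split were higher in miR-21 cKO cells, whereas the entry enzyme Hk2 was lower. Of the 8 measured enzymes, all of them above the dim level, 4 rose (Pgam1, Ldha, Tpi1 and Pgk1, by 1.21- to 1.37-fold), 1 fell (Hk2, 1.33-fold lower) and 3 did not pass (Pkm, Aldoa and Pfkl). These 5 of 8 stand against 31.5% of all genes, and the 4 that rose against 19.4%. The median change of the 8 was 0.20, against 0.07 over all genes tested. All sizes were small, from -0.41 to 0.45 on the log2 scale. The 3 miR-21 cKO arrays lay wholly above the 3 control arrays for 7 enzymes and wholly below them for Hk2, together all 8, against 48.2% of all genes (31.0% above and 17.2% below).

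**Figure D1:**
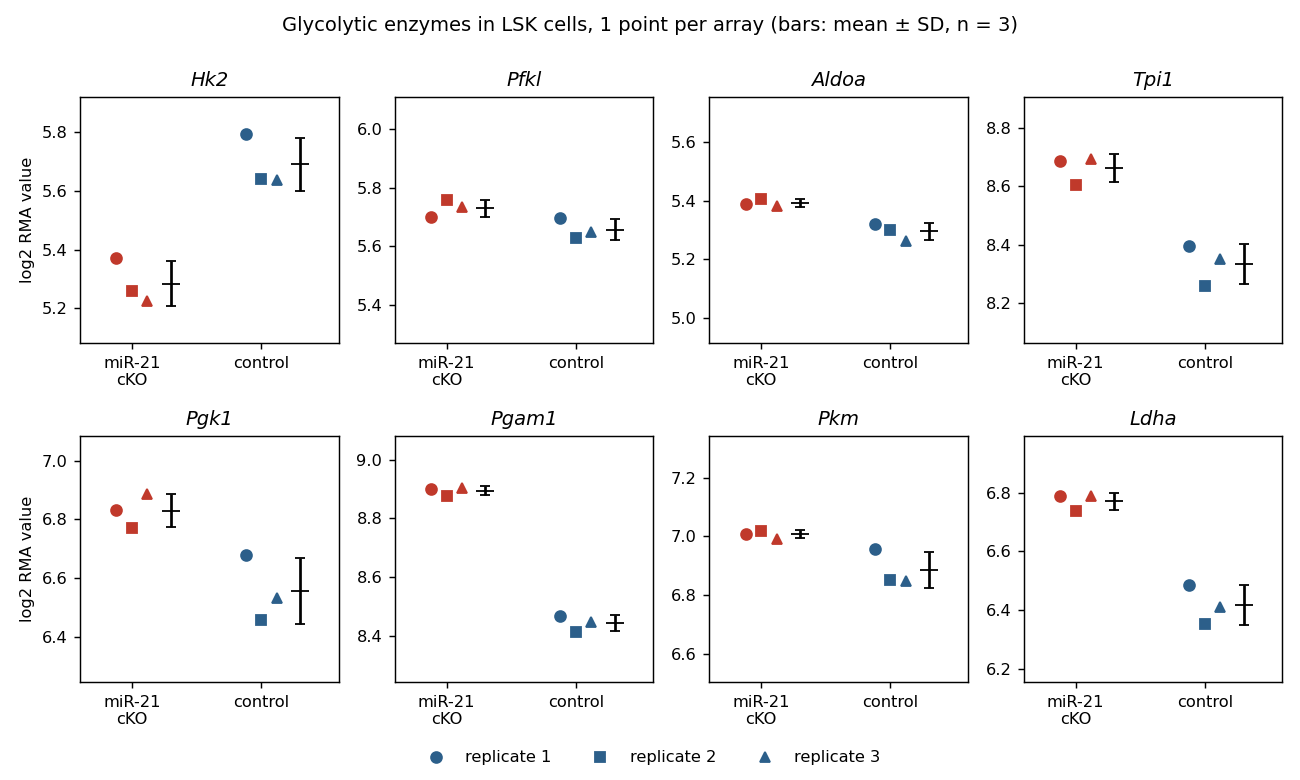
Log2 RMA values of the 8 measured glycolytic enzymes, 1 panel per gene with the same span of the vertical axis in each, miR-21 cKO in red left of control in blue. Symbols give the replicate number, and bars the mean and SD (n = 3). The groups are farthest apart for Pgam1, Ldha, Tpi1 and Hk2, Pfkl values of the groups nearly touch, and control replicate 1 is the highest control array in every panel.

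Hk2 (chr6:82725025-82774454 in GRCm38.p6, as are the positions that follow) encodes the inducible hexokinase that phosphorylates glucose on its way into the pathway. Its log2 values were 5.37, 5.26 and 5.22 in miR-21 cKO, against 5.80, 5.64 and 5.64 in control. Every miR-21 cKO array lay below every control array, with a gap of 0.27 between the nearest. Hk2 fell by 0.41 ± 0.07 (SE), a level 1.33-fold lower (adjusted p = 0.00266), and its adjusted p was at most 0.0126 under the alternatives run.

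The next steps of the upper stage changed less. Pfkl (chr10:77986947-78009807), the liver-type phosphofructokinase that commits the sugar to glycolysis, had values of 5.70, 5.76 and 5.73 in miR-21 cKO, against 5.70, 5.63 and 5.65 in control. The lowest miR-21 cKO array and the highest control array differed by only 0.0033. Its change was 0.07 with a 95% confidence interval of -0.05 to 0.20 (adjusted p = 0.341). Aldoa (chr7:126795234-126800994), the aldolase that cleaves the hexose into 2 trioses, stood at 5.39, 5.41 and 5.38 in miR-21 cKO and at 5.32, 5.30 and 5.26 in control. The arrays did not overlap, but the change of 0.10 did not pass (interval -0.03 to 0.22, adjusted p = 0.202). For Pfkl and Aldoa these intervals hold 0 as well as changes of up to 0.20 and 0.22.

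Tpi1 (chr6:124810586-124814158), the isomerase that lets both trioses enter the lower stage, had log2 values of 8.69, 8.61 and 8.69 in miR-21 cKO and 8.40, 8.26 and 8.35 in control. All miR-21 cKO arrays were above all control arrays by at least 0.21. Tpi1 rose by 0.33 ± 0.06 (SE, 1.25-fold, adjusted p = 0.00442).

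Pgk1 (chrX:106187100-106203699) makes the first ATP of the pathway. Its brighter probe set had 6.83, 6.77 and 6.88 in miR-21 cKO, against 6.68, 6.46 and 6.53 in control, and rose by 0.27 ± 0.07 (SE, 1.21-fold, adjusted p = 0.0188). The control arrays were spread by an SD of 0.11, the widest among the 8 enzymes, and the call was lost without miR-21 cKO replicate 1 or 3 or control replicate 2 or 3 (changes of 0.22 to 0.27, adjusted p = 0.0523 to 0.0683). The identifier of this probe set names chromosome 12, while RefSeq places Pgk1 on X, and 99.6% of 30129 single-gene probe sets carry the chromosome of their gene. The other Pgk1 probe set, whose identifier names X, had 5.85, 5.80 and 5.84 in miR-21 cKO and 5.67, 5.40 and 5.53 in control. It gave a change of 0.30 (adjusted p = 0.0153), so both probe sets were higher in miR-21 cKO.

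Pgam1 (chr19:41911871-41918665) is the mutase that moves the phosphate before the enolase step. Its values were 8.90, 8.88 and 8.91 in miR-21 cKO and 8.47, 8.41 and 8.45 in control. The gap between the groups, 0.41, was much wider than the SDs of 0.015 in miR-21 cKO and 0.028 in control. Pgam1 rose by 0.45 ± 0.05 (SE, 1.37-fold, adjusted p = 4.19e-04), and by p it ranked 616 among the 18736 genes. Pkm (chr9:59656576-59679372), the pyruvate kinase that makes the last ATP, had 7.01, 7.02 and 6.99 in miR-21 cKO and 6.96, 6.85 and 6.85 in control. The groups did not overlap, and the change of 0.12 did not pass (interval -0.01 to 0.25, adjusted p = 0.143). One probe set covers Pkm, so its M1 and M2 splice forms were not separated.

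Ldha (chr7:46842274-46855627) encodes the lactate dehydrogenase subunit that favours making lactate. It stood at 6.79, 6.74 and 6.79 in miR-21 cKO and at 6.49, 6.35 and 6.41 in control. Each miR-21 cKO array was above each control array by at least 0.25. Ldha rose by 0.36 ± 0.06 (SE, 1.28-fold, adjusted p = 0.00246).

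Control arrays varied more than miR-21 cKO arrays for each of the 8 enzymes, with SDs of 0.03 to 0.11 in control and 0.01 to 0.08 in miR-21 cKO, while over all genes the control SD was the larger for 55.1%. Control replicate 1 held the highest control value for all 8 enzymes, Hk2 included, and for 40.4% of all genes. Without it the same number of enzymes passed, 4 higher and 1 lower, and their median change was 0.25 in place of 0.20.

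**Figure D2:**
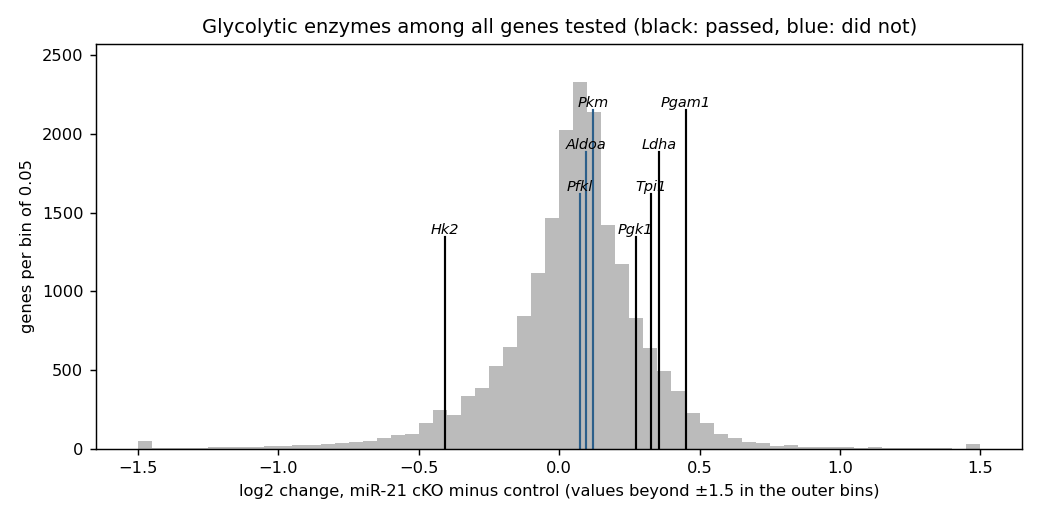
Histogram of the log2 changes (miR-21 cKO minus control) of all 18736 genes tested, in bins of 0.05, with the 8 glycolytic enzymes as lines, black where the gene passed and blue where it did not. Pfkl, Aldoa and Pkm lie within the peak of the distribution, Pgk1, Tpi1, Ldha and Pgam1 lie on its right flank and Hk2 on its left.

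Several steps have isozymes made by other genes, and these did not all move with the listed enzyme. The isozyme list also held Gapdh and Gapdhs, of a step without a listed enzyme, and Bpgm, which makes 2,3-bisphosphoglycerate. Of its 15 genes tested, 4 rose, 1 fell and 10 did not pass (median change 0.10), so the share that passed was near the 31.5% of all genes. The 5 that passed became 3 without miR-21 cKO replicate 1, 2 or 3 or control replicate 3 or with either centring of the arrays, and 2 without control replicate 2. Hk3, a hexokinase known from myeloid cells, had 6.06, 6.09 and 6.13 in miR-21 cKO, against 5.72, 5.63 and 5.62 in control, and rose by 0.44 ± 0.06 (SE, adjusted p = 7.26e-04) where Hk2 fell. Hk1, the widely expressed hexokinase, had a change of -0.08 (adjusted p = 0.299). At the end of the pathway the directions were also opposite. Ldhb, the subunit that favours using lactate, had 4.76, 4.63 and 4.76 in miR-21 cKO, against 5.32, 5.03 and 5.27 in control, and fell by 0.49 ± 0.08 (SE, adjusted p = 0.00267) where Ldha rose. The platelet-type phosphofructokinase Pfkp rose by 0.18 (adjusted p = 0.0333), a call lost without any 1 of miR-21 cKO replicates 1, 2 and 3 or control replicates 2 and 3 (adjusted p = 0.0732 to 0.102) and with arrays centred on their median (0.0579) or on that of the genes tested (0.0759). The muscle enolase Eno3 rose by 0.22 (adjusted p = 0.0205), a call lost without miR-21 cKO replicate 1 or 3 or control replicate 2 (0.0541 to 0.0802). The muscle mutase Pgam2 rose by 0.26 with an adjusted p (0.0498) just under the threshold. Gapdh, the dehydrogenase between the triose and Pgk1 steps, was at 9.49 ± 0.02 in miR-21 cKO and 9.34 ± 0.03 in control (SD, n = 3 each). Its change of 0.15 missed the threshold (adjusted p = 0.0611), passed it with a stricter filter on dim genes (0.0477) or a trended, robust variance (0.0452), and was 0.03 after a second quantile normalization.

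Unequal change within a step was measured as the log2 difference between the 2 isozymes on each array, for 6 pairs. The level of this difference depends on the probes, so it is read only between groups. Ldha minus Ldhb was 2.03, 2.11 and 2.03 in miR-21 cKO and 1.16, 1.32 and 1.13 in control. The groups were far apart, and the difference between them was 0.85. Hk2 minus Hk3 was -0.69, -0.83 and -0.91 in miR-21 cKO and 0.08, 0.01 and 0.02 in control, and the groups differed by -0.85. Hk2 minus Hk1 differed by -0.33, Aldoa minus Aldoc by 0.28 and Pfkl minus Pfkp by -0.11, each without overlap of the groups. Lack of overlap is common here, as it held for 48.2% of single genes, and its share among differences between genes was not computed. The Aldoa minus Aldoc difference was 0.18 without control replicate 1. For these 5 pairs the exact two-sided permutation p was 0.1, the smallest that 3 arrays against 3 allow, and 0.12 adjusted over the 6 pairs. Pfkl minus Pfkm differed by -0.03 with overlapping groups (exact permutation p = 0.7).

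**Figure D3:**
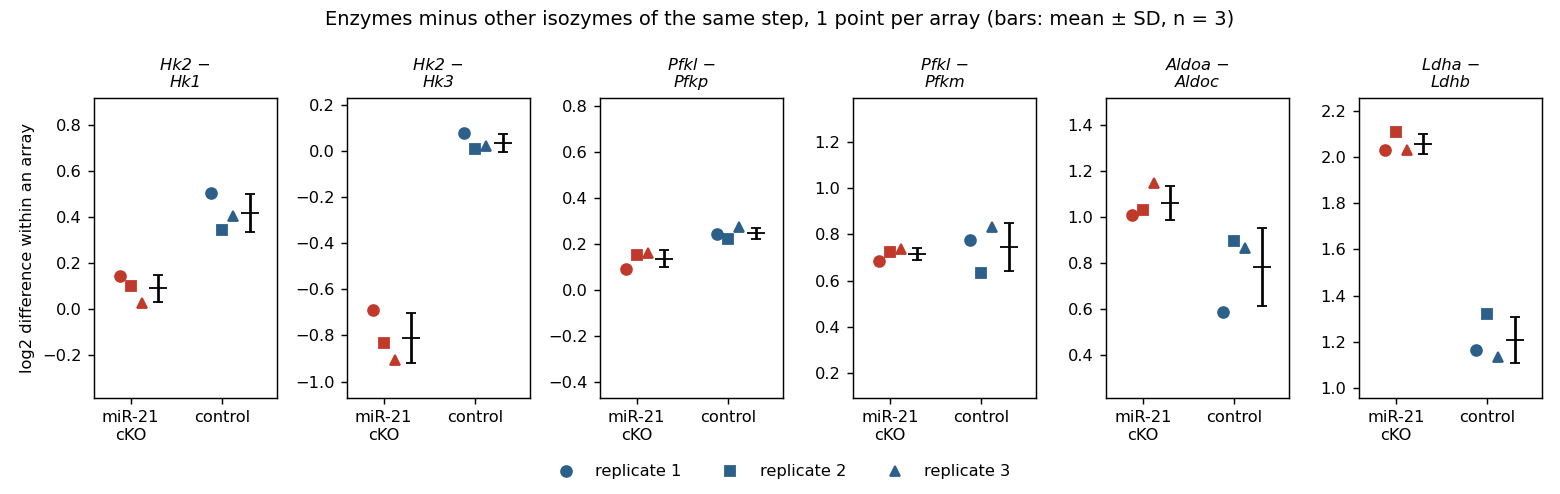
Within-array log2 differences between a glycolytic enzyme and another isozyme of its step, 1 point per array, miR-21 cKO in red left of control in blue, with mean and SD (n = 3) and the same span of the vertical axis in each panel. Ldha minus Ldhb is near 2.06 in miR-21 cKO and 1.21 in control, Hk2 minus Hk3 is near -0.81 and 0.04, and Pfkl minus Pfkm overlaps between the groups.

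Among 12 glucose and lactate transporter genes tested, 3 rose, 2 fell and 7 did not pass, close to the 19.4% higher and 12.2% lower of all genes, and the median change of 0.07 was that of all genes. The glucose carriers Slc2a3 (GLUT3) and Slc2a1 (GLUT1) fell. Slc2a3 had 5.52, 5.46 and 5.47 in miR-21 cKO, against 6.29, 6.16 and 6.26 in control, a fall by 0.76 ± 0.06 (SE, 1.69-fold lower, adjusted p = 3.1e-05). Slc2a1 had 6.82, 6.72 and 6.76 in miR-21 cKO, against 7.14, 7.11 and 6.96 in control, and fell by 0.30 (adjusted p = 0.00868). The groups of both genes were fully apart. The lactate carrier Slc16a1 (MCT1) rose by 0.27 (adjusted p = 0.0126, a call lost without miR-21 cKO replicate 1, with a change of 0.24), Slc2a8 rose by 0.27 (adjusted p = 0.0120) and the MCT partner protein Bsg by 0.24. Of 3 regulators of phosphofructokinase tested, 0 passed in limma, 2 had an unadjusted p under 0.05, and 1 or 2 passed under some alternatives (a stricter filter, a second quantile normalization, array weights, the replicate block, or without control replicate 1). Pfkfb3, which makes the activator fructose 2,6-bisphosphate, was at -0.13 (adjusted p = 0.237). Of 12 genes for the entry of pyruvate into mitochondria, 3 rose and 9 did not pass (median change 0.05), against 19.4% higher among all genes, and the 3 became 0 without miR-21 cKO replicate 3 and 1 without miR-21 cKO replicate 1 or control replicate 2 or 3. The pyruvate carrier subunit Mpc1 rose by 0.27 (adjusted p = 0.0150), but not without miR-21 cKO replicate 3 or control replicate 2 (0.0539 and 0.0520). The dehydrogenase component Pdhx rose by 0.23 (adjusted p = 0.0174), but not without miR-21 cKO replicate 1 or 3 or control replicate 3 (0.0517 to 0.0691). The dehydrogenase kinase Pdk3 rose by 0.20 (adjusted p = 0.0382), a call lost without the filter on dim genes, with either centring of the arrays and without miR-21 cKO replicate 1 or 3 or control replicate 2 or 3 (0.0509 to 0.123). The inhibitory kinase Pdk1 was at 0.01 (adjusted p = 0.908).

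**Figure D4:**
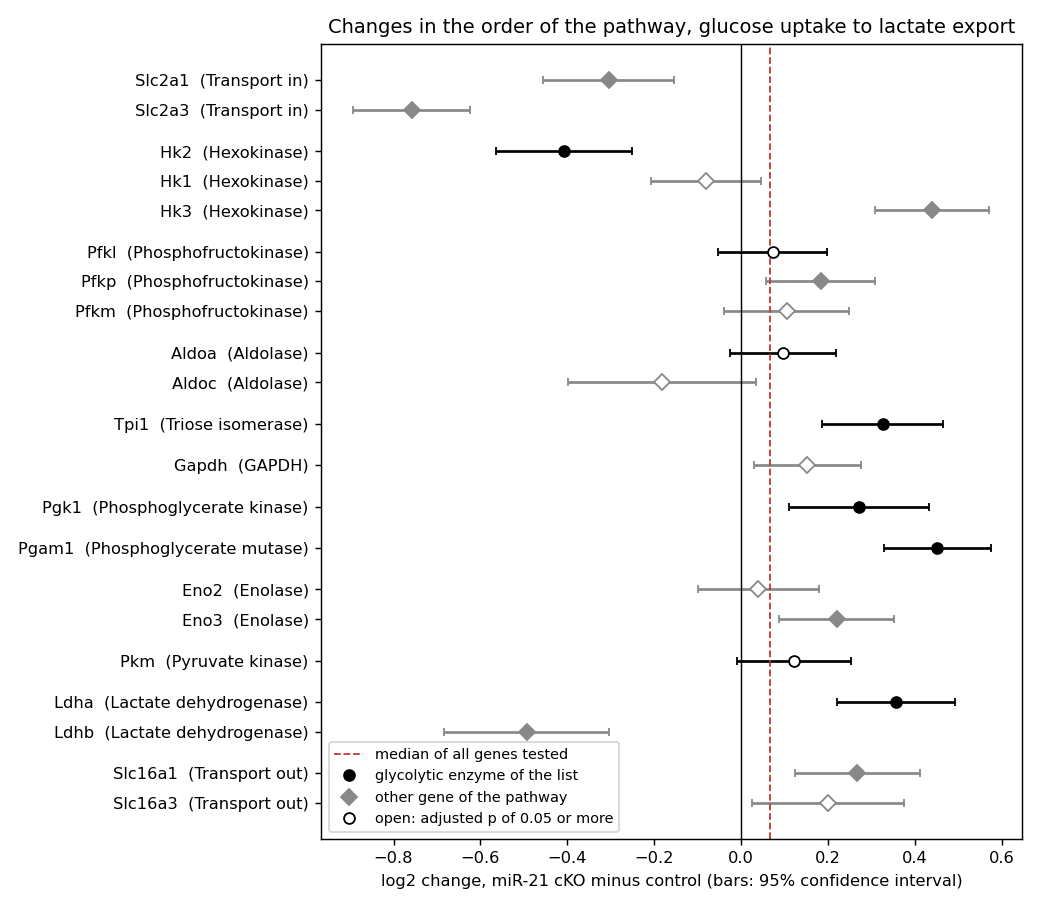
Log2 changes (miR-21 cKO minus control) with 95% confidence intervals in the order of the pathway, glycolytic enzymes of the list as black circles and other genes as grey diamonds, filled where the adjusted p was under 0.05. Slc2a3, Slc2a1 and Hk2 lie left of 0, and Tpi1, Pgk1, Pgam1 and Ldha lie right of the median of all genes (dashed line, 0.07). Pkm and Aldoa, which did not pass, lie right of that median too, and Pfkl lies almost on it. Hk3 and Ldhb lie opposite to Hk2 and Ldha.

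Several glycolytic genes have processed copies in the mouse genome, and array probes can bind transcripts of a gene and its copies alike. Probe sets that named such copies were fitted with all 32985 probe sets above the dim level, of which 24.9% passed and 11.5% were higher in miR-21 cKO. The probe sets shared by Pgam1 and Pgam1-ps2 and by Pgam1 and Gm8910 were higher by 0.44 and 0.51 (adjusted p = 0.00231 and 0.00177), close to the 0.45 of the probe set of Pgam1 alone, and the copy Pgam1-ps1 was higher by 0.40 (adjusted p = 0.0356). Ldha-ps2, a copy of Ldha, had 6.29, 6.24 and 6.41 in miR-21 cKO, against 5.55, 5.72 and 5.82 in control, a change of 0.62 (adjusted p = 0.00247). Another copy, Ldha-ps, had a change of 0.29 that did not pass (adjusted p = 0.0538), and neither did the Aldoa copies Aldoart1 (0.30, adjusted p = 0.0732) and Aldoart2 (-0.07, 0.594). The probe set shared by Gapdh and Gm7336 was higher by 0.22 (adjusted p = 0.0279). Which of the transcripts gave the signal of each probe set was not tested, so values of Pgam1, Ldha, Gapdh and Pgk1 may include their copies.

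Because 4 of the enzymes rose together and Hk2 fell, the 250 bases before a listed start of each of these genes are shown. They are from RefSeq (GRCm38.p6), 5′ to 3′ on the strand of the gene. Capitals mark the letters ACGTG or GCGTG on either strand (read as CACGT and CACGC on the other), the core that HIF-1 binds. CACGTG, the E-box that Myc binds, contains ACGTG on both strands. The windows are at chr19:41911621-41911870 (plus) for Pgam1, chr6:124814159-124814408 (minus) for Tpi1, chrX:106186850-106187099 (plus) for Pgk1 and chr6:82774455-82774704 (minus) for Hk2. The Ldha window is at chr7:46845554-46845803 (plus, the first of 2 listed starts). It lies inside the span given above for Ldha, chr7:46842274-46855627, and not upstream of it.
Pgam1: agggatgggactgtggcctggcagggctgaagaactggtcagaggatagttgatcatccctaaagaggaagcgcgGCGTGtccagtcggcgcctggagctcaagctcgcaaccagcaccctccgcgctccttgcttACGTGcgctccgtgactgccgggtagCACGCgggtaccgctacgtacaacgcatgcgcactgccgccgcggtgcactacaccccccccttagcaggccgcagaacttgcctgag
Ldha: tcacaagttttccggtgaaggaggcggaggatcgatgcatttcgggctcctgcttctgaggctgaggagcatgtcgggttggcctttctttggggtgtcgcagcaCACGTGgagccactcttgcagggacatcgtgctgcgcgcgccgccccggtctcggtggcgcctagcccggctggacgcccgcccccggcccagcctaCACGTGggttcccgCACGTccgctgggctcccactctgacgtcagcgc
Tpi1: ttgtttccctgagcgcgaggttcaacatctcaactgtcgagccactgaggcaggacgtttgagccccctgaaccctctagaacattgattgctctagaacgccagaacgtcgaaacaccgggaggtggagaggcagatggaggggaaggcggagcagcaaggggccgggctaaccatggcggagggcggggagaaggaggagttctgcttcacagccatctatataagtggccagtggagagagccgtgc
Pgk1: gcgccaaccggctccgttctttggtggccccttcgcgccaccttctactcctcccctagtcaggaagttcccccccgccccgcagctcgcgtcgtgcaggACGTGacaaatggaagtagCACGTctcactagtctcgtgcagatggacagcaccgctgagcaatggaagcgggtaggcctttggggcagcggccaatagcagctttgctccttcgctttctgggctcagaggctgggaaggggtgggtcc
Hk2: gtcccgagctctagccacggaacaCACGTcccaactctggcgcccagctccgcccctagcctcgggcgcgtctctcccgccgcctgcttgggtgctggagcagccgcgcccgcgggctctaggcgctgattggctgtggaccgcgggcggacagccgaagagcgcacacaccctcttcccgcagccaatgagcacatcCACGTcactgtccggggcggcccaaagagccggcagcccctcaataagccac

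The window of Ldha that is shown held 3 marked runs, 2 of them CACGTG, that of Pgam1 held 3, those of Pgk1 and Hk2 held 2 each, and that of Tpi1 held none. The window before the other listed start of Ldha held 1 marked run and no CACGTG. All 10 listed genes had entries, with 16 starts in all, among them those of Gpi1 and Eno1, which were not measured. Some windows of Aldoa and of Eno1 overlap, so the same site is counted for more than 1 start. Either core was present before 12 of the 16, against 38.6% of 32851 starts of all genes. ACGTG was found before 7 of the 16, against 16.6% of all, and CACGTG before 1, against 6.02%. The windows of the listed genes were richer in G and C, with a median of 63.4% against 52.4% over all starts. A match describes the letters only, and the gene that fell carried the core as did 3 of the 4 that rose. Pfkl, Aldoa and Pkm, which did not pass, carried a core before a listed start as well.

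The transcription factors named above moved in different directions. Of 13 hypoxia and Myc regulators tested, 2 rose, 3 fell and 8 did not pass (median change -0.03), a share near the 31.5% of all genes. Hif1a, the oxygen-regulated subunit of HIF-1, had 4.90, 4.76 and 4.83 in miR-21 cKO, against 5.40, 5.39 and 5.40 in control, and fell by 0.57 ± 0.06 (SE, adjusted p = 1.81e-04). Its partner subunit Arnt fell by 0.59 (adjusted p = 1.88e-04), and the prolyl hydroxylase Egln3, itself induced by HIF, fell by 0.33 (adjusted p = 0.00545). Myc had 7.95, 8.06 and 8.05 in miR-21 cKO, against 7.26, 7.24 and 7.12 in control, and rose by 0.81 ± 0.06 (SE, adjusted p = 3.4e-05). These are transcript levels, and the activity of the proteins was not measured.

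Markers of myeloid precursors and of dividing cells moved with the enzymes that rose. Over all genes tested, beside which the counts below stand, 19.4% were higher and 12.2% lower in miR-21 cKO. All 14 neutrophil and precursor markers tested rose (median change 1.201), and their summed linear level was 3108 to 3221 in miR-21 cKO, against 1182 to 1272 in control. The filter on the mean of all 6 arrays left out none of these 14, although the lineage gate would remove mature neutrophils. Of these, Mmp8 stood at 2.98 in miR-21 cKO but at 1.94 in control, near the dim level of 1.92. Mpo, the defining peroxidase of the list, was at 10.50 ± 0.03 in miR-21 cKO and 9.53 ± 0.05 in control (SD, n = 3 each). Of 11 proliferation markers, 10 rose and 0 fell (median change 0.46), with a summed level of 1500 to 1613 in miR-21 cKO and 1085 to 1163 in control. Among 7 erythroid markers 4 rose and 1 fell (median 0.23), and these 5 became 3 with a stricter filter on dim genes or without miR-21 cKO replicate 2 or control replicate 1. Their summed level was 147 to 157 in miR-21 cKO and 141 to 153 in control. Of 9 lineage antigens, 3 rose and 1 fell, 2 in all with a stricter filter. The Gr-1 antigens Ly6c1 and Ly6g rose by 0.80 and 0.38 (limma adjusted p = 2.98e-04 and 0.0117), while Itgam (Mac-1) fell by 0.43 (0.00163). Ly6g stood not far above the dim level, at 2.61 in miR-21 cKO and 2.23 in control. The NK cell antigen Klrb1c rose by 0.55 (limma adjusted p = 5.76e-04). It stood at 2.39 in miR-21 cKO and at 1.85 in control, under the dim level of 1.92. Klrb1c thus passed the filter only through the miR-21 cKO arrays. The summed level of the 9 lineage antigens was 123.3 to 127.6 in miR-21 cKO and 116.7 to 117.5 in control. Of 10 LSK markers, 1 rose and 8 fell (median -0.46), with a summed level of 1308 to 1327 in miR-21 cKO and 1643 to 1673 in control. The summed level of the 8 glycolytic enzymes was 1340 to 1381 in miR-21 cKO and 1071 to 1154 in control. Such linear sums are set mostly by the brightest genes of a list. For the enzymes these are Pgam1 and Tpi1, and the sum does not show the fall of Hk2. The part of these cell type and cell cycle differences in the changes of the enzymes was not tested.

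**Figure D5:**
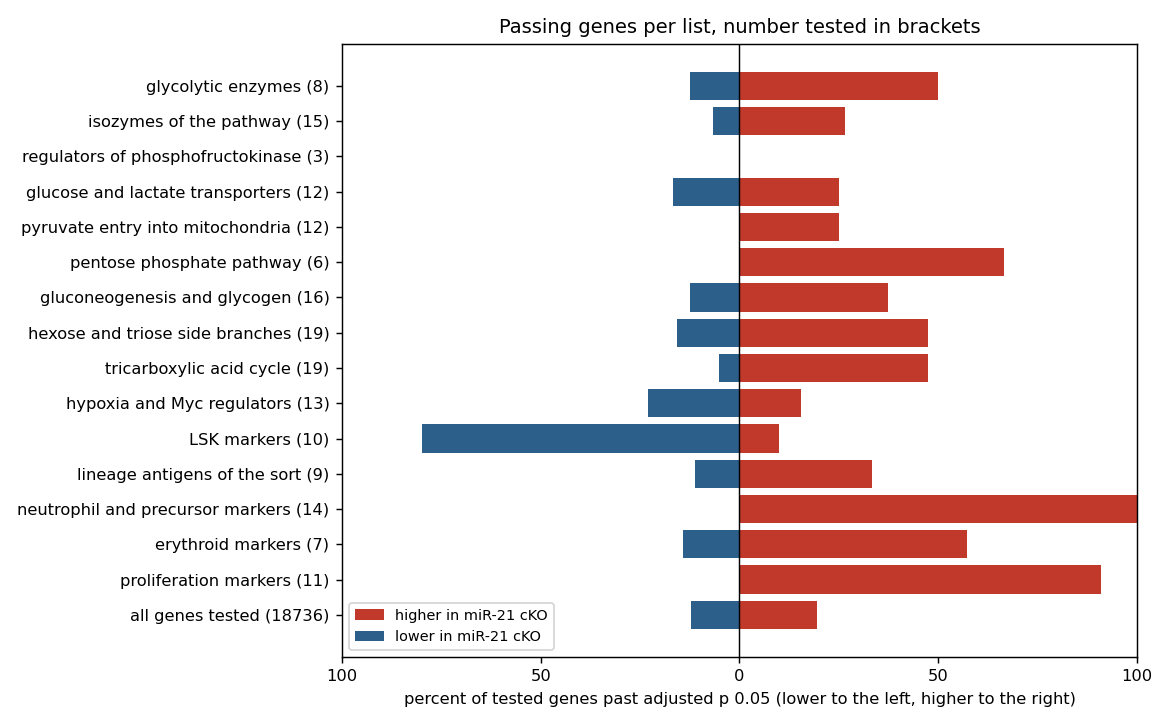
Percent of the tested genes of each list past an adjusted p of 0.05, higher in miR-21 cKO to the right in red and lower to the left in blue, with the number of genes tested in brackets and all genes in the lowest row. The glycolytic enzymes, with 4 higher and 1 lower of 8, stand beside neutrophil and precursor markers, of which all 14 are higher, and LSK markers, of which 8 of 10 are lower.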

How the data were processed

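Total RNA (250 ng) of 6 sorted LSK samples was labelled with biotin and hybridised to Affymetrix arrays, per the labels' protocols. The deposited log2 values were made with RMA, per the submitters' processing notes; the RMA version, software and genome build are not given in the sources used here, and base 2 was read from the range of the values. RMA normalizes across arrays, which can hide a shift common to most genes. Of 65956 probe sets, 30604 had 1 gene symbol from GEO's platform annotation, 2146 had several and 33206 had none. Symbols were updated by Entrez ID through RefSeq (GRCm38.p6; 827 changed). The brightest probe set stood for each of 355 symbols with more than 1. Genes with a mean under 1.92 were left out.

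Groups and replicate numbers came from the sample titles. Limma 3.58.1 (R 4.3.3; lmFit, eBayes, two-sided, Benjamini-Hochberg over all 18736 genes, threshold 0.05) was fitted without covariates, after a test on simulated data. Isozyme differences used exact permutation. Depth does not apply to arrays: 3 per group limit the precision. The members, lists, pairs and motifs were chosen with earlier results of these data known. Named were all measured members, the isozymes of the pairs, up to 4 passing genes per list by p, Gapdh, Pfkfb3, Pdk1, Slc2a1 and Hif1a; further genes (Bsg, Pgam2, the copies and markers) were chosen after their values were seen. Alternatives covered filters, scaling, probe sets, weights, variance, a replicate block and leaving out each array.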

Additional observations from a re-analysis of the deposited data

How the results depend on the processing

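Under the 16 alternatives, 5 of the 8 glycolytic enzymes passed, 4 higher and 1 lower, except without miR-21 cKO replicate 1 or 3 or control replicate 2 or 3, where 4 passed because Pgk1 did not; leaving out 1 array at a time gave 4 to 5. The other 7 enzymes kept their direction and their side of the threshold in all alternatives run. Centring on the median of the genes tested and the Pgk1 probe set on X were chosen after seeing the data. The median change of the enzymes ran from 0.16 to 0.25 without 1 array. Genes higher over the whole table numbered 2341 to 3115 without 1 array, lowest without miR-21 cKO replicate 3, against 3632, and higher genes of the other pathway lists 26 to 38, lowest without control replicate 2, against 40. Pfkl minus Pfkm ran from -0.090 to 0.011 without 1 array, the last without control replicate 3. Pdk1 was at -0.0026 with arrays centred on their median and at -0.024 with the genes tested, and ran from -0.033 to 0.045 without 1 array. Replicate numbers are shared by the groups, but same-numbered arrays deviated together with correlations of only 0.175, 0.196 and 0.071, so they were not treated as pairs, although each array correlated best with its own number. With the replicate block 7183 genes passed in place of 5909, among them 5 of the 8 enzymes. Of the 46 genes recomputed, Pdk1 alone changed sign; the causes were not tested. Signal over background limits the dimmer isozymes.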

Other observations

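Branches that leave or feed glycolysis were looked at beside it, against 19.4% higher and 12.2% lower over all genes. Of 6 pentose phosphate genes tested, 4 rose and 0 fell (median change 0.29). Pgls and Pgd, which follow glucose 6-phosphate dehydrogenase in the NADPH-making branch, rose by 0.37 each (limma adjusted p = 0.00148 and 0.00212), H6pd rose by 0.29 and the transaldolase Taldo1 by 0.29. Of 16 gluconeogenesis and glycogen genes, 6 rose and 2 fell (median 0.12). The glucose 6-phosphate carrier Slc37a4 rose by 0.65 and Pck2, a mitochondrial enzyme that makes phosphoenolpyruvate, by 0.34. The muscle glycogen phosphorylase Pygm and the branching enzyme Gbe1 fell by 0.60 and 0.41. The other phosphorylases, Pygl and Pygb, did not pass (changes of 0.09 and 0.08, limma adjusted p = 0.345 and 0.324).

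Among 19 genes of hexose and triose side branches, 9 rose and 3 fell (median 0.10). Shmt2, a mitochondrial enzyme of serine and one-carbon metabolism, rose by 0.52, the fructokinase Khk by 0.52 and the mannose phosphate isomerase Mpi by 0.35, and the hexosamine enzyme Gfpt2 fell by 0.76. Of 19 tricarboxylic acid cycle genes, 9 rose and 1 fell (median 0.19), 10 in all, and 5 to 6 passed without miR-21 cKO replicate 1, 2 or 3 or control replicate 2 or 3, or with arrays centred on the median of the genes tested. Sdhb (0.32), Idh2 (0.33), Idh1 (0.28) and Sdhc (0.27) rose. Of the 115 genes of the 9 lists beside the enzymes, 40 rose, 12 fell and 63 did not pass.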
